A study of Mus musculus with 9 samples.

Results

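Undifferentiated mouse embryonic stem cells labelled Hnrnpll knockout were compared with wild-type cells at day 0, before embryoid bodies were formed. Hnrnpll encodes the RNA-binding protein hnRNPLL, whose level was not measured here. The comparison holds 3 of the 9 polyA+ RNA-seq libraries of the series. The knockout (genotype Hnrnpll-/-) has 2 libraries, 1 each of lines G6 and H8, and wild type has 1 library. All cells grew in medium containing 15% fetal bovine serum and the cytokine LIF. The labels name no feeder layer, and they do not say how the allele was made, which parental line was used or whether each line is 1 clone. The other 6 libraries (days 4 and 8, the same lines) entered the model for its estimate of spread and for the comparison between days. With 1 wild-type library and 2 lines, genotype and line identity cannot be told apart, and p-values measure the spread between these lines. Levels are given as TPM (a gene's share of the transcripts in a library, scaled for gene length) and differences as log2 fold changes, knockout minus wild type, fitted to counts by edgeR (quasi-likelihood F test). A change was called at an adjusted p under 0.05 over all 24794 genes tested.

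hnRNPLL binds pre-mRNA and is best known for directing exon choice in immune cells. Embryonic stem cells in serum and LIF keep a naive pluripotency network (Esrrb, Klf4, Nanog, Zfp42) beside a shared core (Pou5f1, Sox2), and a small share of cells passes through a state that transcribes genes of the 2-cell embryo, such as the Zscan4 cluster. Interferon signalling runs from sensors of foreign nucleic acid, through secreted interferons and their receptors, to transcription factors such as IRF9, which bind promoters of interferon-stimulated genes. The products of those genes block viruses, and another branch loads peptides on MHC class I. Stem cells are known to use this pathway weakly.

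The 3 libraries carry the markers of the labelled cell type. Pou5f1, the central pluripotency factor, was measured at 1953 TPM in G6, 1761 TPM in H8 and 1372 TPM in wild type, and Sox2 at 380 and 376 TPM in the knockout lines and 339 TPM in wild type. All 22 general and all 18 naive pluripotency genes listed reached 1 TPM in each library. Total counts were 54218051 in G6, 61626609 in H8 and 113059196 in wild type, so the knockout libraries had the lower depth. Counts up to 40 fell on multiples of 4 in 43.5% of cases in G6 and 42.6% in H8, against 33.0% in wild type and 30.5% to 33.2% in the other 6 libraries. The counts carry no molecular identifiers. Where a group had 0 counts, its fold is bounded with 3 counts summed over that group, which covers counting error only. Because low counts came in steps of 4, such bounds may be up to 4 times too high.

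Hnrnpll itself (ENSMUSG00000024095, mm10 chromosome 17, 80029487 to 80062334) remained at 54.9 TPM in G6 and 24.5 TPM in H8, against 77.1 TPM in wild type. Its difference was -0.59 in G6 and -1.60 in H8, and -0.996 (SE 0.45, adjusted p = 0.245) for both lines, so its RNA level alone did not separate the genotypes at the threshold. Counts per gene do not show which exons are present. The paralog Hnrnpl was measured at 585 and 512 TPM in the knockout lines and 389 TPM in wild type (0.53, adjusted p = 0.122).

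Across all genes, 1347 of 24794 (5.43%) differed, 274 higher (1.11%) and 1073 lower (4.33%) in the knockout, and all 1347 had 1 sign in both lines. The spread comes from the pairs of lines and both lines share the wild-type library, so this agreement is largely built into the call. Protein-coding genes gave 229 higher (1.33%) and 536 lower (3.11%) of 17238. Pseudogenes, copies of genes that mostly encode no protein, gave 11 higher (0.391%) and 494 lower (17.5%) of 2815, and are described apart below. The remaining classes gave 34 higher (0.717%) and 43 lower (0.907%) of 4741. The shares over all genes are the background for the counts of calls in each list below. A fit of protein-coding genes alone called 429, of which 114 were higher and 315 lower. Leaving out a day 4 knockout library gave 378 (G6) or 375 (H8) calls, leaving out a day 8 one 588 or 569, the day 0 libraries alone 19, and DESeq2 3692. At an unadjusted p under 0.05 edgeR gave 6038 genes.

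Interferon-stimulated genes were low in both knockout lines and high in wild type. Of 70 tested interferon effectors, genes whose products act on viruses, 48 were lower and none was higher, and 69 of 70 lay below 0. Their median difference was -3.99, against -0.02 for all genes tested, and -4.12 in G6 and -4.18 in H8 taken alone. Summed over the 73 listed effectors the level was 614 TPM in G6, 564 TPM in H8 and 2989 TPM in wild type. In bulk RNA, fewer cells that express a gene and less RNA per cell cannot be told apart.

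Promoters of members that the interferon results turn on are shown first, because interferon-stimulated genes are known to carry GAAA, any 2 bases and GAAA again, the core of the interferon-stimulated response element. They are the 250 bases before the RefSeq gene start (build GRCm38.p6), written 5′ to 3′ along the gene, with matches in capitals, on either strand (TTTC, any 2 bases and TTTC on the other). B2m lies at chr2:122147437-122147686 (plus strand), Ifit1 at chr19:34640639-34640888 (plus strand), Isg15 at chr4:156200819-156201068 (minus strand), Psmb9 at chr17:34187331-34187580 (minus strand) and Ifitm2 at chr7:140955962-140956211 (minus strand).
B2m: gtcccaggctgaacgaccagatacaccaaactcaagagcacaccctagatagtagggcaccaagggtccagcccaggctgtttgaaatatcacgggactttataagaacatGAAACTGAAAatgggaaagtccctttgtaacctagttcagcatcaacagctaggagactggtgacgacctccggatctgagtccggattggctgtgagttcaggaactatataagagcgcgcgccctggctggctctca
Ifit1: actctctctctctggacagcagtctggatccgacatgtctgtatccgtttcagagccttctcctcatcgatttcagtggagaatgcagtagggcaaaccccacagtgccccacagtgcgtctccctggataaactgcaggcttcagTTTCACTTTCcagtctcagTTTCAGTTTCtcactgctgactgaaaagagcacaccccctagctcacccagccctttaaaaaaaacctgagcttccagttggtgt
Isg15: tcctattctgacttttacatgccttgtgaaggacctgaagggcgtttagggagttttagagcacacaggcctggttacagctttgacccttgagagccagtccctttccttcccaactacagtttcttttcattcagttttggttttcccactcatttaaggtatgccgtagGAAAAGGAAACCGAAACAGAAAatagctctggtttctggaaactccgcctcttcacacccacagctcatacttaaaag
Psmb9: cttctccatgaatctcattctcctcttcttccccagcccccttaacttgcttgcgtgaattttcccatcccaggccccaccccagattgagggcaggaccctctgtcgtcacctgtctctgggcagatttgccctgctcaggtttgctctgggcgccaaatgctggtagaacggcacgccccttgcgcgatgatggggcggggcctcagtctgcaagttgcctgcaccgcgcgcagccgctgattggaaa
Ifitm2: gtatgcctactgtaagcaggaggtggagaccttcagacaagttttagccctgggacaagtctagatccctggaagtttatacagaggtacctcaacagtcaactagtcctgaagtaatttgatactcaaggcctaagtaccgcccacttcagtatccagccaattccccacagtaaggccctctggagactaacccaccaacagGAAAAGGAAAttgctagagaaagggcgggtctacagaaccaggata
The match begins 139 bases before the start in B2m, 104 and 85 bases before it in Ifit1, and 46 bases before it in Ifitm2. In Isg15 a run of 3 overlapping matches begins 78, 72 and 66 bases before the start. B2m, Ifit1 and Isg15 were called lower and Ifitm2 higher, while Psmb9, with no match in this window, was not called.

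Over windows of 250 bases before to 50 after the start, 3.99% of 27025 genes held this motif. It stood in 22 of 38 effectors called lower (57.9%) and in 10 of 17 not called lower (58.8%), so within the effector list it did not go with the call. In the MHC class I and antigen processing list it stood in 4 of 8 called lower and 1 of 14 not called lower. Among nucleic acid sensors these were 2 of 3 and 1 of 10, and among receptor and signalling genes 0 of 2 and 3 of 12. Among protein-coding genes it stood in 13.8% of those called lower, 1.76% of those called higher and 3.69% of those tested. A match describes letters and is not a binding site.

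Sensors of foreign nucleic acid came down in part. Of 17 tested, 5 were lower (4.33% among all genes tested) and none higher, with a median of -0.87. Ifih1, which encodes the double-stranded RNA sensor MDA5, was at 0.0252 TPM in G6 and 0.0134 TPM in H8, against 9.35 TPM in wild type, a 347-fold fall (-8.44, SE 0.50, adjusted p = 0.00403). That rests on 4 and 3 counts in the knockout and 2391 in wild type. Tlr3, an endosomal sensor of double-stranded RNA, fell to 0.258 and 0.194 TPM, against 3.62 TPM in wild type (-3.96, adjusted p = 0.0104). The Z-nucleic acid sensor Zbp1 (-3.47, 0.00964), the kinase gene Eif2ak2, which encodes PKR (-2.27, 0.00599), and Ifi204 (-4.80, 0.0323) also fell, each with its adjusted p second. The related sensor gene Ddx58, which encodes RIG-I, was measured at 11.6 and 38.6 TPM in the knockout lines and 135 TPM in wild type and did not pass (-2.36, adjusted p = 0.124). The adaptor gene Mavs was at 21.5 and 28.2 TPM in knockout and 11.8 TPM in wild type (1.12, adjusted p = 0.153).

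Interferon ligands were close to absent in all 3 libraries. All 11 listed ligand genes had 0 counts in G6 and in H8, and 7 of 11 had 0 in wild type, where Ifnk had 25 counts, Ifng 10, Ifnb1 4 and Ifnz 2. Together they reached 0.766 TPM in wild type. The receptor genes did not pass: Ifnar1 was at 25.04 and 19.8 TPM in the knockout lines and 23.2 TPM in wild type (-0.06, adjusted p = 0.889), and Ifnar2 at 18.2 and 20.1 TPM against 8.42 TPM (0.51, adjusted p = 0.333).

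Of 16 receptor and signalling genes, 4 were lower and none higher, and all 4 act downstream of the receptor. Irf9, a transcription factor of the type I response, fell to 12.6 and 10.1 TPM, against 48.4 TPM in wild type (-2.08, adjusted p = 0.0109). Irf7, which amplifies interferon production, fell to 0.252 and 0.89 TPM, against 16.1 TPM in wild type (-4.70, adjusted p = 0.0158). Usp18, a protease that removes ISG15 and restrains receptor signalling, was at 0 TPM in G6 and 0.34 TPM in H8, against 113 TPM in wild type (0 and 13 counts against 11418; -9.83, adjusted p = 0.0114). Stat2 was at 18.2 and 8.09 TPM in the knockout and 35.9 TPM in wild type and did not pass for both lines (-1.46, adjusted p = 0.0967), though it did in H8 alone (-2.10, adjusted p = 0.021). The kinase gene Jak1 had a difference of 0.05 (adjusted p = 0.951).

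Of the 73 effectors, 33 reached 1 TPM in G6 and 29 in H8, against 69 in wild type, and 12 and 13 had 0 counts in the lines, against none in wild type. Isg15, a ubiquitin-like protein attached to other proteins in antiviral defence, was at 0.182 TPM in G6 and 0.635 TPM in H8, against 147 TPM in wild type (4 and 16 counts against 6643; -8.43, SE 0.62, adjusted p = 0.00439). Ifit1, which binds viral RNA, was at 0.156 and 0.0678 TPM, against 36.3 TPM (-8.35, adjusted p = 0.00436). Both lines lay far below wild type for each. The antiviral GTPase gene Mx2 had 0 counts in both lines and 3670 in wild type (31.8 TPM), at least 1266-fold lower in the knockout, and Ifit3b had 0 counts against 3591, at least 1239-fold lower.

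GTPases that act on vacuoles of pathogens were low in both lines. Irgm1 was at 2.55 and 0.756 TPM in the knockout lines and 235 TPM in wild type (-7.16, adjusted p = 0.00557). The guanylate-binding protein genes Gbp2b (-8.54, adjusted p = 0.00335), Gbp3 (-8.39, 0.00436) and Gbp2 (-7.65, 0.00436) fell as well. The OAS genes, which make an oligoadenylate messenger that activates RNase L, include Oas1a, which was at 9.85 and 10.9 TPM against 74.7 TPM in wild type (-2.84, adjusted p = 0.0118). Bst2, the membrane tether of budding viruses, kept 93.3 and 110 TPM in the knockout, against 627 TPM in wild type (-2.63, adjusted p = 0.0066). Ly6e, a membrane protein of the same list, was the 1 member above 0, at 62.6 and 67.3 TPM in the knockout and 48.8 TPM in wild type (0.29, adjusted p = 0.495). Ifi44 and the chemokine gene Ccl5 had 0 counts in both knockout lines and 2489 and 267 in wild type, and were not tested because too few libraries of the series held them. Of the 48 effectors called, 29 were lower in both day 0 knockout libraries than in every other library of the series. The same held for 381 of the 536 protein-coding genes called lower, so it was not particular to effectors. Both sets were chosen by their call at day 0, so this order follows in part from the choice.

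Antigen presentation was also lower. Of 28 tested MHC class I and antigen processing genes, 13 were lower, none was higher and all 28 lay below 0, with a median of -1.53 (-1.59 in G6 and -2.21 in H8). B2m, the invariant chain of class I molecules, was at 38.2 TPM in G6 and 38.7 TPM in H8, against 253 TPM in wild type (-2.71, SE 0.18, adjusted p = 0.00436). Psmb8, an immunoproteasome subunit, was at 0.478 and 0.0737 TPM against 9.08 TPM (-5.06, adjusted p = 0.021), while Psmb9, its partner subunit, was at 5.51 and 2.68 TPM against 6.38 TPM (-0.61, adjusted p = 0.462). The peptide trimming enzyme gene Erap1 fell 11.7-fold (-3.55, adjusted p = 0.00436). The heavy chain gene H2-D1 was at 27.2 and 25.04 TPM in the knockout and 95.2 TPM in wild type (-1.88, adjusted p = 0.0454), and H2-K1 at 32.1 and 12.5 TPM against 46.8 TPM did not pass (adjusted p = 0.193). Nlrc5, the transactivator of class I genes, fell at a low level, with 22 and 34 counts in the knockout and 328 in wild type (-2.61, adjusted p = 0.0276). The class I heavy chains are close paralogs, and their counts are uncertain.

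Ifitm2 went the other way. This gene (ENSMUSG00000060591, chromosome 7, 140954837 to 140955987), which encodes a membrane protein that hinders virus entry, was at 869 TPM in G6 and 803 TPM in H8, against 104 TPM in wild type, an 8.10-fold rise (3.02, SE 0.22, adjusted p = 0.00439). Both lines were well above wild type and close to each other. It was the 1 of 7 tested Ifitm genes to pass. Its neighbours Ifitm3 (260.4 and 241 TPM against 473 TPM; -0.91, adjusted p = 0.117) and Ifitm1 (85.2 and 121 TPM against 104 TPM; 0.01, adjusted p = 1) did not. Ifitm2 overlaps another annotated gene and is a close paralog of both, and the use of strand is not given in the sources used here.

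**Figure D1:**
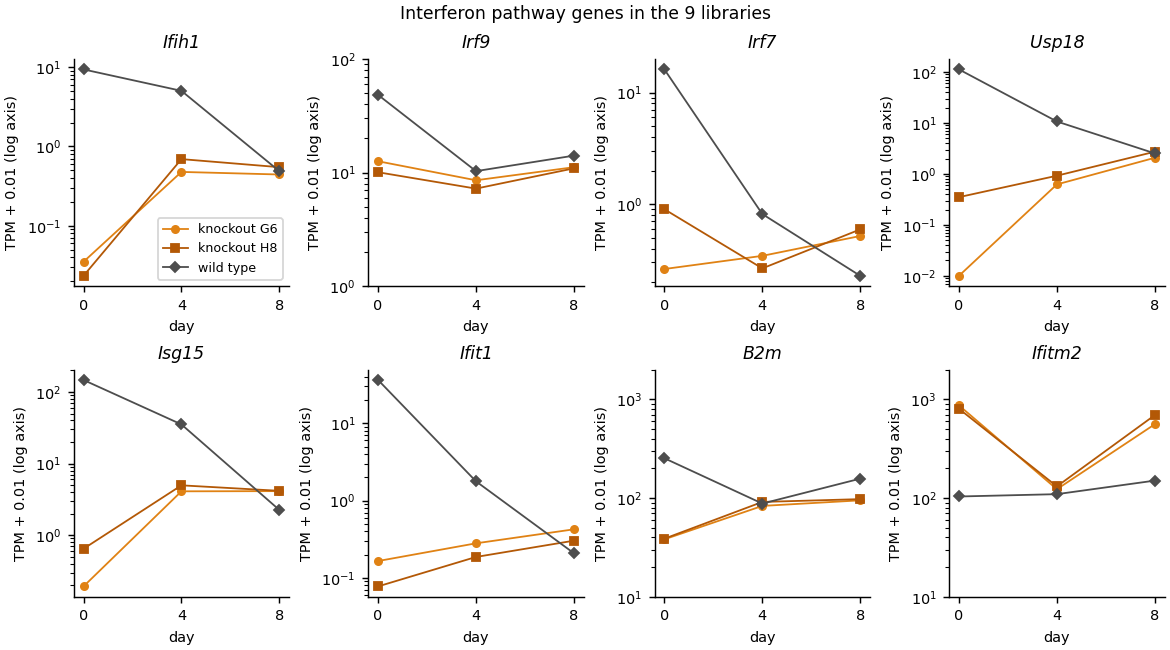
TPM plus 0.01 (log axis) of 8 interferon pathway genes in the 9 libraries by day, with knockout lines G6 and H8 in orange and brown and wild type in grey. At day 0 wild type lies above both lines for 7 genes and below both for Ifitm2, and by day 8 the wild-type values of Irf7 and Isg15 lie below those of both knockout lines.

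Genes of the 2-cell-like state were low as a group. Of 29 tested, 12 were lower (4.33% among all genes tested), none was higher and all 29 lay below 0, with a median of -3.60. The median was -4.99 in G6 and -2.93 in H8 alone. Zscan4f, a member of the cluster that protects telomeres in stem cells, was at 4.57 TPM in G6 and 11.4 TPM in H8, against 189 TPM in wild type (-4.51, SE 0.70, adjusted p = 0.0244). Zscan4c was at 2.22 and 7.07 TPM against 95.7 TPM (-4.33, adjusted p = 0.0349), and all 6 listed Zscan4 genes were called. They are near-identical copies whose counts cannot be split with certainty. Duxf3, a Dux gene of the 2-cell stage, had 4 and 3 counts in the knockout and 69 in wild type and did not pass (-3.32, adjusted p = 0.111). Summed over the list the level was 26.6 TPM in G6, 66.2 TPM in H8 and 884 TPM in wild type. Of 21 alternative settings, Zscan4f passed in 16 and Zscan4a in 13. Duxbl1, a double homeobox gene, had 0 counts in both lines and 623 in wild type, at least 215-fold lower.

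Of 18 naive pluripotency genes, 3 were higher in the knockout (1.11% among all genes tested) and none was lower. Of the 18, 15 lay above 0 (median 0.81, with 0.59 in G6 and 1.12 in H8). Esrrb, a nuclear receptor of the naive state, was at 286 and 348 TPM in the knockout lines and 143 TPM in wild type (1.02, SE 0.16, adjusted p = 0.026). Zfp42, also called Rex1, was at 717 and 825 TPM against 366 TPM (1.09, adjusted p = 0.0311), and Fgf4, a growth factor made by naive cells, at 152 and 167 TPM against 46.7 TPM (1.77, adjusted p = 0.0234). Nanog was at 583 and 606 TPM against 272 TPM and did not pass (1.14, adjusted p = 0.0895), nor did Klf5 (1.61, adjusted p = 0.118) or Tbx3 (1.60, adjusted p = 0.0979), whose differences were larger than that of Esrrb. Klf4 differed between the lines, with 289 TPM in G6, 700 TPM in H8 and 150 TPM in wild type, and passed in H8 alone (2.26, adjusted p = 0.0373). Without the day 4 library of either line Esrrb and Zfp42 no longer passed, and none of these 3 passed without the day 8 library of either line. Of 21 alternative settings, Esrrb and Zfp42 passed in 16 and Fgf4 in 18.

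Genes of the formative and primed epiblast, the next stage in development, lay lower. Of 18 tested, 5 were lower (4.33% among all genes tested), none was higher and 17 lay below 0 (median -1.47). Lefty1, an inhibitor of Nodal, was at 23.02 TPM in G6 and 21.5 TPM in H8, against 359 TPM in wild type, a 16.5-fold fall (-4.05, SE 0.32, adjusted p = 0.00484) that passed in all 21 settings. Lefty2 was at 37.3 and 24.5 TPM against 124 TPM (-2.12, adjusted p = 0.00652). Fgf5, the marker of the primed state, was at 0.0826 and 0.37 TPM against 4.30 TPM (6 and 31 counts against 601; -4.08, adjusted p = 0.0227). The de novo methyltransferase gene Dnmt3b was at 60.6 and 51.1 TPM against 152 TPM (-1.50, adjusted p = 0.0365). Dnmt3b passed in neither line alone, nor with protein-coding genes alone, nor without the day 4 library of either line. Otx2 at 21.2 and 15.4 TPM against 46.3 TPM did not pass (adjusted p = 0.143). In the general list, Lin28a, which blocks let-7 maturation, was at 124 and 116 TPM against 303 TPM (-1.36, adjusted p = 0.0103), and Utf1 at 520 and 449 TPM against 269 TPM (0.85, adjusted p = 0.0464).

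Of 21 Nodal and BMP pathway genes, 6 were lower and 3 higher, against 4.33% lower and 1.11% higher among all genes tested. Beside the Lefty genes, Inhba (-2.81, adjusted p = 0.0498) fell, while Inhbb, which encodes the other activin beta chain, was at 60.1 and 36.6 TPM in the knockout and 5.39 TPM in wild type (3.16, SE 0.36, adjusted p = 0.0106). The inhibitor gene Smad7 (60.7 and 79.6 TPM against 17.6 TPM; 1.97, adjusted p = 0.0173) and the type I receptor gene Acvr1b (44.2 and 43.0 TPM against 14.8 TPM; 1.56, adjusted p = 0.0121) rose. The BMP target genes Id2 (-1.72, adjusted p = 0.0155) and Id3 (-1.94, adjusted p = 0.0481) fell. Nodal was split between the lines, with 22.1 TPM in G6, 68.9 TPM in H8 and 67.9 TPM in wild type.

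Of 18 FGF and ERK genes, 2 were higher and 3 lower. Among all genes tested 1.11% were called higher and 4.33% lower. Beside the ligands Fgf4 and Fgf5, the feedback inhibitor gene Spry4 rose (49.2 and 41.1 TPM against 14.5 TPM; 1.64, adjusted p = 0.0228), and the receptor gene Fgfr2 (3.07 and 2.01 TPM against 14.3 TPM; -3.08, adjusted p = 0.00484) and the ERK phosphatase gene Dusp4 (8.44 and 15.5 TPM against 43.8 TPM; -1.85, adjusted p = 0.0436) fell. Of 12 LIF and STAT3 genes, 1 was higher: the LIF receptor gene Lifr, at 32.8 and 30.1 TPM in the knockout and 17.0 TPM in wild type (0.84, adjusted p = 0.0473), which passed in 8 of 21 settings. Stat3 was at 87.7 and 136 TPM against 79.9 TPM (0.53, adjusted p = 0.376), and its target Socs3 at 155 and 111 TPM against 45.6 TPM (1.58, adjusted p = 0.13). Of 25 WNT genes, the 3 ligand genes Wnt3, Wnt7a and Wnt8a were lower and none was higher, each at no more than 2.97 TPM in wild type. In the DNA methylation list Zfp57, which guards imprints, was at 493 and 328 TPM against 115 TPM (1.80, adjusted p = 0.0351).

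Among protein-coding genes with at least 5 CPM (a count as a share of its library) in the higher group, the largest rise was that of Nkx6-3, a homeobox gene, at 20.1 TPM in G6 and 14.7 TPM in H8, against 0.936 TPM in wild type (4.21, SE 0.77, adjusted p = 0.037). Nkx6-3 passed in neither line alone and not in the fit of protein-coding genes alone. It also lost its call when any knockout library of day 4 or day 8 was left out. Nxph4, a secreted neuronal protein, was at 19.7 and 7.86 TPM against 0.761 TPM (4.15, adjusted p = 0.0315). Atp2a3, a calcium pump, was at 39.98 and 63.8 TPM against 3.94 TPM (3.65, adjusted p = 0.0116), and Ndufa4l2, a mitochondrial protein induced in hypoxia, at 90.9 and 87.5 TPM against 8.23 TPM (3.44, adjusted p = 0.013). The rule took only genes with the same sign in both lines, so agreement of the lines in each was fixed by it. The other 8 rises named by the same rule were Crtac1 (3.71), Grin1 (3.42), Igsf21 (3.25), Rapgef3 (3.23), Rgs22 (3.20), Pou2f3 (3.19), Inhbb (3.16) and Klhdc7a (3.15), with adjusted p from 0.00789 to 0.0441. Of the 12 largest falls of protein-coding genes, 11 were interferon pathway genes (Ifit3b, Epsti1, Usp18, Trim30a, Gbp2b, Ifih1, Isg15, Gbp3, Ifit1, Ifit3 and Gbp2) and 1 was Duxbl1. Mx2, which fell by a larger bound than Ifit3b, is not ranked there because the annotation classes it as a polymorphic pseudogene.

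Among all protein-coding genes tested, 1.33% were called higher and 3.11% lower. Of 28 glycolysis and hypoxia genes, 3 were higher, none was lower and 26 lay above 0 (median 0.77). Pgk1 was at 1541 and 1468 TPM in the knockout lines and 731 TPM in wild type (1.05, adjusted p = 0.0334), Gpi1 rose by 1.21 and Ndrg1 by 1.56 on the log2 scale. Of 77 cytosolic ribosomal protein genes, 8 were higher and 1 lower, the largest rise being that of Rpl27 (2927 and 2405 TPM against 943 TPM; 1.49, adjusted p = 0.011), and Rps3a1 fell (-0.71, adjusted p = 0.0436). Of 171 pseudogenes named for ribosomal protein genes, 73 were called lower (median -1.93), against 17.5% of all pseudogenes tested. Reads from near-identical copies can be assigned to either, so the counts of ribosomal protein genes are uncertain too. The serine metabolism genes Shmt2 (1.08), Phgdh (0.89) and Psat1 (0.76) were the 3 of 24 called in the amino acid and integrated stress list, each with an adjusted p between 0.0452 and 0.0483. Of 24 cholesterol synthesis genes 1 was called, Tm7sf2 (1.56, adjusted p = 0.0481). Of 50 splicing factors and hnRNP genes, 2 were lower: Esrp1, an epithelial splicing factor (-2.12, adjusted p = 0.0269), and Khdrbs1, which encodes SAM68 (-0.996, adjusted p = 0.026). None was called of 26 oxidative phosphorylation, 35 cell cycle, 21 p53 target, 20 polycomb, 20 chromatin remodeler, 23 germline and 13 mitochondrially encoded genes.

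**Figure D2:**
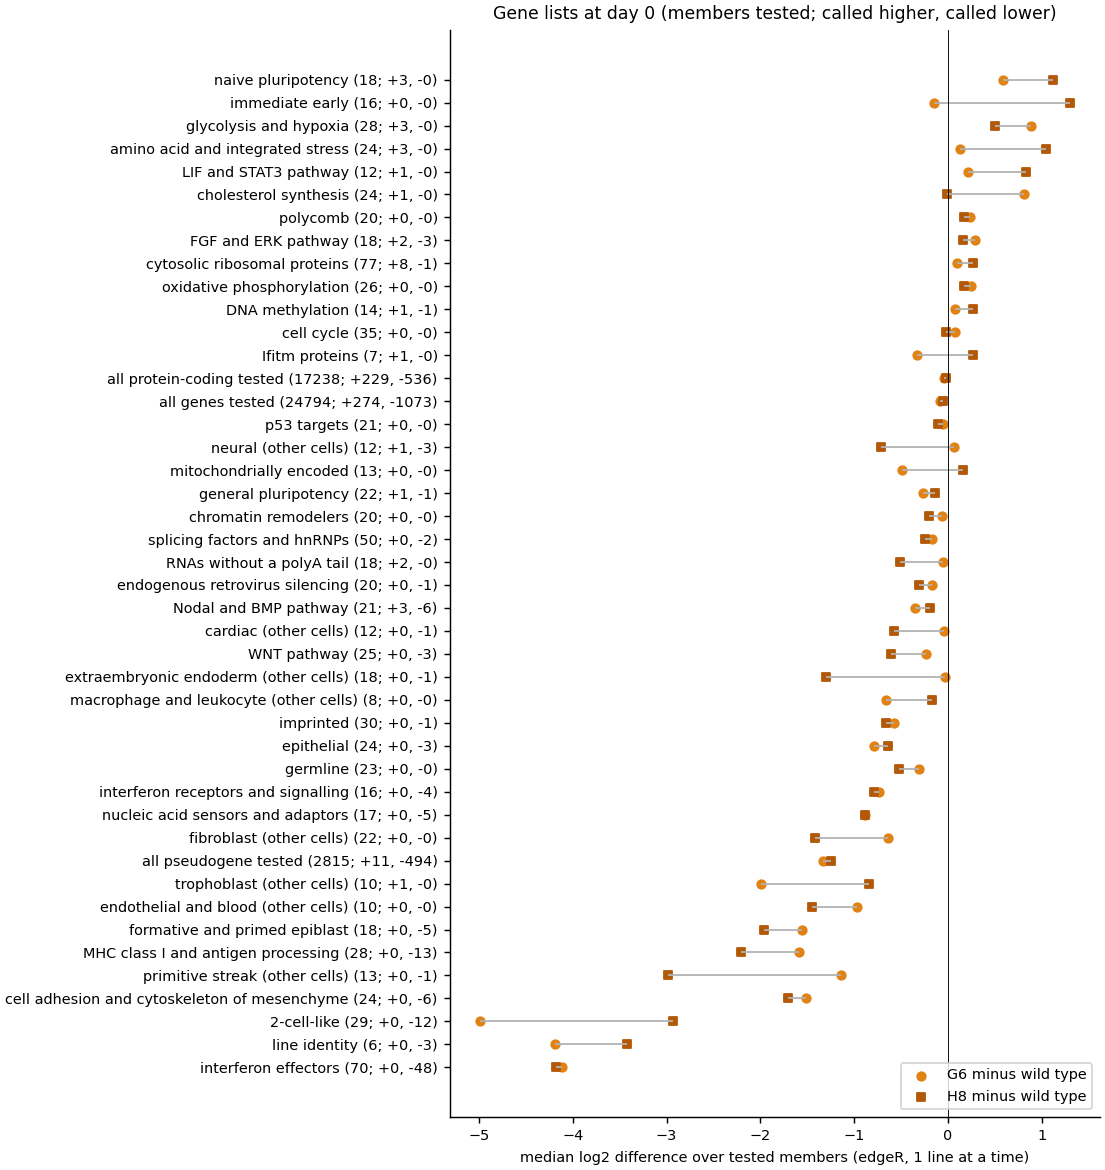
Median log2 difference of each gene list at day 0 for line G6 (circles) and line H8 (squares) against wild type, from fits that leave out the other line. The brackets give the members tested and how many were called higher and lower with both lines. Interferon effectors (-4.12 and -4.18) lie together in both lines, while the 2-cell-like list (-4.99 and -2.93) and the immediate early list (-0.15 and 1.304) differ between lines.

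Each line was set against wild type on its own. G6 alone gave 1398 calls (5.64% of genes tested, 308 higher and 1090 lower) and H8 alone gave 1586 (6.40%, 454 higher and 1132 lower). Both called 866 genes with the same sign and 2 with opposite signs. The lines share the wild-type library, so this overlap is not independent support. Among 10848 protein-coding genes with a mean of at least 5 CPM, 941 (8.67%) differed over 2-fold between H8 and G6, while 1640 (15.1%) did so between G6 and wild type and 1868 (17.2%) between H8 and wild type. Of these genes 979 moved over 2-fold the same way in both lines, and 16 lay on opposite sides of wild type.

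Medians of some lists lay apart in the 2 lines, and the difference between the lines was not tested, as each has 1 library. Immediate early genes, which respond to serum and handling, had a median of -0.15 in G6 and 1.304 in H8, with a summed level of 976 TPM in G6, 2384 TPM in H8 and 706 TPM in wild type. Fos was at 293 TPM in G6, 855 TPM in H8 and 110 TPM in wild type. It passed in G6 alone (1.27, adjusted p = 0.0434), in H8 alone (3.02, adjusted p = 0.0166) and with DESeq2, but not in the edgeR fit of both lines (2.40, adjusted p = 0.107). None of the 16 tested passed in that fit. The amino acid and integrated stress list had medians of 0.13 in G6 and 1.05 in H8, and Atf4, its central factor, was at 351, 705 and 330 TPM in G6, H8 and wild type. Cholesterol synthesis ran the other way, with medians of 0.81 in G6 and -0.01 in H8.

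By chromosome, the lines differed on chromosome 15. The median difference from wild type over its 439 protein-coding genes with at least 5 CPM was 0.11 in G6 and 0.59 in H8, while the 18 other autosomes lay between -0.12 and 0.16 in G6 and between -0.15 and 0.26 in H8. H8 minus G6 on chromosome 15 was 0.50, 0.33 and 0.31 at days 0, 4 and 8. The highest of the other autosomes was chromosome 4, at 0.21, 0.18 and 0.19. Lifr, Rgs22 and Rapgef3, named above, lie on chromosome 15. Lifr differed from wild type by 0.82 in G6 and 0.84 in H8. Gene dosage was not measured.

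**Figure D3:**
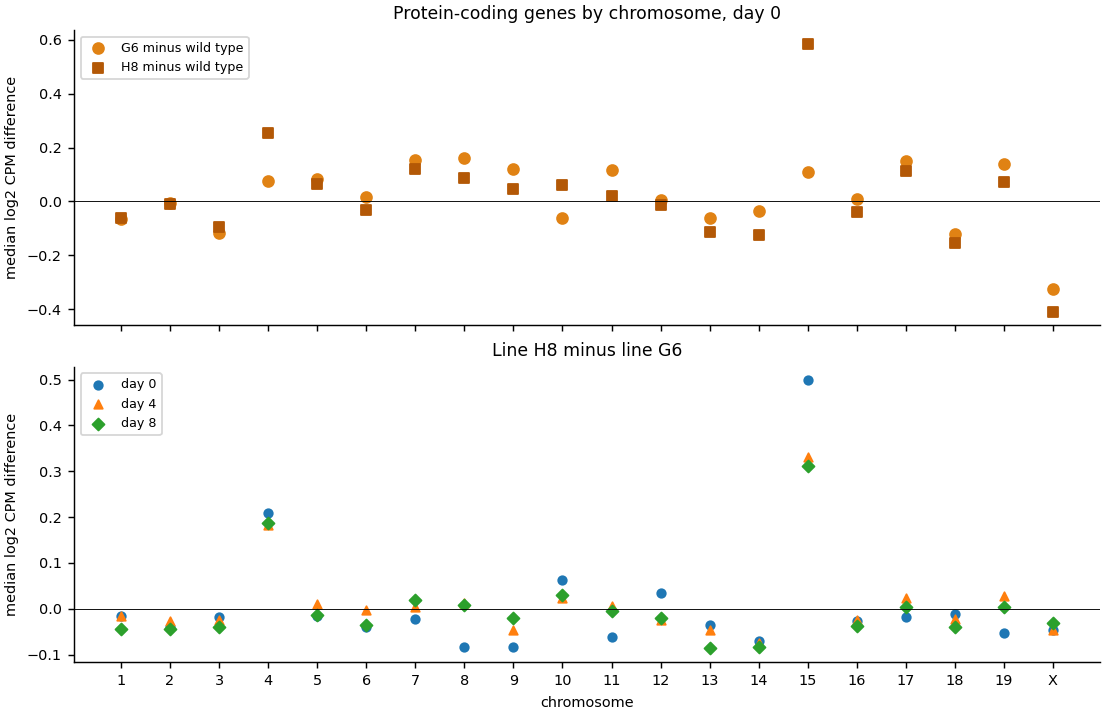
Median log2 CPM difference of protein-coding genes by chromosome, for each knockout line against wild type at day 0 (top) and for H8 minus G6 at each day (bottom). Chromosome 15 stands at 0.59 in H8 and 0.11 in G6 at day 0, and H8 lies above G6 on it at all 3 days.

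Of 4 Y-linked genes, 3 were lower in the knockout. The Y-linked gene Eif2s3y, a translation initiation factor, was at 2.15 TPM in G6 and 1.54 TPM in H8, against 129 TPM in wild type (55 and 51 counts against 12131; -6.88, SE 0.29, adjusted p = 0.00403). Ddx3y (-5.61) and Uty (-5.64) fell as well, each with an adjusted p of 0.0162. Kdm5d did not pass, with 24 and 29 counts in the knockout and 122 in wild type (-1.25, adjusted p = 0.606). In both lines Eif2s3y was at 0 TPM at day 8 and at no more than 0.0533 TPM at day 4, so its low level at day 0 was the highest of the knockout course. Genes of the X chromosome had medians of -0.33 in G6 and -0.41 in H8. Xist was at 2.90 and 3.63 TPM in the knockout and 8.42 TPM in wild type (-2.01, adjusted p = 0.0783).

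Markers of other cells were lower in part, where 4.33% of all genes tested were called lower and 1.11% higher. Of 24 genes of mesenchymal adhesion and cytoskeleton, 6 were lower and none higher (median -1.57), among them Tagln, an actin-binding protein (63.8 and 47.7 TPM against 235 TPM; -2.09, adjusted p = 0.0229), and Anxa1 (-2.51, adjusted p = 0.00979). Of 22 fibroblast markers none was called, with a median of -1.03 and a summed level of 322 TPM in G6, 206 TPM in H8 and 529 TPM in wild type. Col1a1 was at 44.2 and 27.6 TPM in the knockout and 54.5 TPM in wild type, and 19, 18 and 20 of 22 markers reached 1 TPM in G6, H8 and wild type. The same markers summed to 78.0, 64.7 and 84.5 TPM in G6, H8 and wild type at day 4. The sums at day 8 were 63.7, 133 and 1259 TPM. Of 24 epithelial genes 3 were lower, among them the keratin gene Krt18 (16.2 and 38.5 TPM against 284 TPM; -3.35, adjusted p = 0.0277). Of 10 leukocyte markers listed, 8 were tested and none was called, 3 lying above 0 and 5 below. Their summed level was 133 TPM in G6, 277 TPM in H8 and 89.3 TPM in wild type, and 4 of 10 reached 1 TPM in each library. Laptm5, a lysosomal membrane protein of blood cells, was at 108 and 202 TPM in the knockout and 51.0 TPM in wild type (1.87, adjusted p = 0.101), and Cd68 at 21.7 and 70.7 TPM against 31.8 TPM. Fcer1g had 24 and 36 counts in the knockout and 0 in wild type (adjusted p = 0.0848), while Ptprc, the pan-leukocyte gene, had 4 and 4 counts against 28 and Tyrobp 0 and 0 against 7. The part of such cells in the interferon result was not tested.

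Lists of early lineages gave from none to 4 calls each. Among all genes tested 4.33% were called lower and 1.11% higher, so 1 call in a list this small is not read as a result about it. The extraembryonic endoderm list had 1 lower gene of 18 (Lrp2, -2.49, adjusted p = 0.0278), the cardiac list 1 of 12 (Actc1, 0 counts in both lines and 385 in wild type, at least 133-fold lower), the primitive streak list 1 of 13 (Wnt3), the endothelial and blood list none of 10, the trophoblast list 1 higher of 10 (Tead4, 1.43, adjusted p = 0.0359), and the neural list 3 lower (Dcx, Nes and Map2) and 1 higher (Msi1) of 12. Of 30 imprinted genes 1 was lower (Magel2, -2.88, adjusted p = 0.0121). Of 20 genes that silence endogenous retroviruses 1 was lower, Zfp932 (-1.66, adjusted p = 0.017), while Trim28 was at 900 and 638 TPM in the knockout and 780 TPM in wild type (-0.07). Of 18 RNAs listed as lacking a polyA tail, the signal recognition particle RNAs Rn7s1 (92.6 and 65.0 TPM against 2.17 TPM; 5.17, adjusted p = 0.00721) and Rn7s2 (4.46, adjusted p = 0.00963) rose in these polyA+ libraries.

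Pseudogenes made up 494 of the 1073 genes called lower (46.0%) and 11.4% of genes tested. Of the 494, 482 were processed pseudogenes, copies made from spliced mRNA. Gm3699, a processed pseudogene of chromosome 10 (43456427 to 43456501), had 0 counts in both lines and 817 in wild type (184 TPM), at least 282-fold lower, and was at 366 and 339 TPM in the same lines at day 4. Gm15516 had 2 and 2 counts in the knockout and 1889 in wild type (-8.89, adjusted p = 0.00182). In 477 of the 494, both day 0 knockout libraries lay below all 7 other libraries, which held for 381 of the 536 protein-coding genes called lower (3.11% of protein-coding genes tested were called lower, and 17.5% of pseudogenes). Median CPM over the 494 was 0.282 in G6 and 0.321 in H8 at day 0, against 4.09 in wild type, and 3.02 to 4.78 in the other 6 libraries. The 494 were chosen by their call at day 0, so this gap follows in part from the choice. Over all 2815 pseudogenes tested, median CPM was 0.200 in G6, 0.220 in H8 and 0.562 in wild type at day 0. In the other 6 libraries it was 0.422 to 0.603. The 2 day 0 knockout libraries are also the shallowest and have the most low counts on multiples of 4. The part of the library in this result was not tested. None of the 494 was called at day 4 (28 at day 8) in the same model, and 67 differed between day 0 and day 4 by the test of that difference. Of the 536 protein-coding genes called lower, 1 was called at day 4 and 168 at day 8, so few calls at day 4 were not particular to pseudogenes.

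The parent genes did not fall with their copies. In 334 pairs of a pseudogene named for 1 of 179 parents, the median difference was -1.53 for pseudogenes and 0.09 for parents. Of the pseudogenes 102 were called lower and 1 higher, whereas no parent was called lower and 7 were called higher. Outside ribosomal protein parents the medians were -1.07 and 0.07 over 163 pairs. Rpl27-ps1 was at 0.65 and 1.60 TPM in the knockout and 93.3 TPM in wild type (-6.30, adjusted p = 0.00439), while its parent Rpl27 rose. Reads from near-identical copies can be assigned to either, so all pseudogene counts are uncertain. The largest of the 11 rises was that of Gm7367 (178 and 272 TPM against 26.2 TPM; 3.12, adjusted p = 0.0122).

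**Figure D4:**
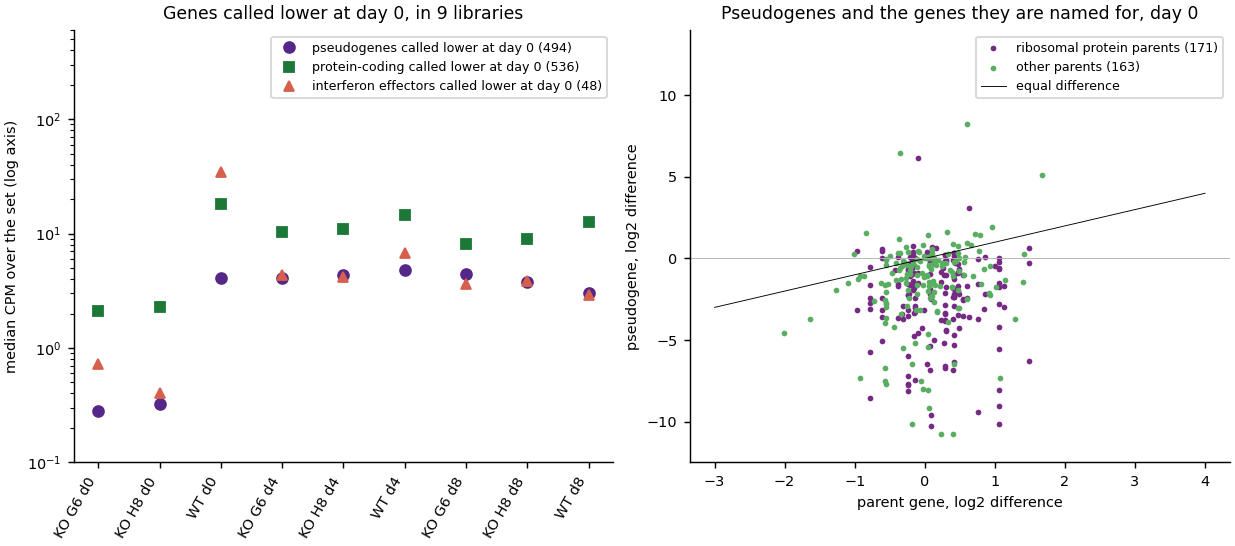
Left, median CPM (log axis) of the pseudogenes, protein-coding genes and interferon effectors called lower at day 0, in each of the 9 libraries. These sets were chosen by their call at day 0. Right, log2 difference at day 0 of each pseudogene (vertical axis) against that of the gene it is named for (horizontal axis). The pseudogenes are low in the 2 day 0 knockout libraries, at 0.282 and 0.321, against 3.02 to 4.78 elsewhere, and the interferon effectors are high in day 0 wild type, at 34.6, against 2.88 to 6.74 at days 4 and 8.

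The change of the knockout difference between days was tested in the same fit. A missing call in this test does not show that a day 0 difference held in embryoid bodies. Between day 0 and day 4 the knockout difference changed in 125 genes (0.504%), 12 higher (0.0484%) and 113 lower (0.456%) at day 0. Of the 125, 115 were also called at day 0, and 67 of the 113 were pseudogenes, which made up 11.4% of genes tested. Between day 0 and day 8 it changed in 1166 (4.70%), 235 higher (0.948%) and 931 lower (3.75%), 629 of the 1166 called at day 0. Both tests contain the day 0 difference from the same libraries, so overlap with the day 0 calls (5.43% of genes tested) is in part built in. At an unadjusted p under 0.05 the counts were 4267 and 6343. Of the 70 interferon effectors, 8 had a lower difference at day 0 than at day 4 and 37 than at day 8. Their medians were -3.99, -1.004 and 0.66 at days 0, 4 and 8. The wild-type libraries summed to 2989, 1277 and 434 TPM over the list at these days, while the knockout lines stayed between 564 and 886 TPM. For Ifih1 the change was -5.36 against day 4 (adjusted p = 0.0488) and -8.62 against day 8 (adjusted p = 0.0155). The 2-cell-like list gave none against day 4 and 10 against day 8. Without the day 4 or day 8 library of either line these counts fell to 0 or 1 for day 4 and to 0 to 27 for day 8. With the replicate block they were 12 and 1359, and with protein-coding genes alone 1 and 295.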

How the data were processed

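PolyA+ RNA-seq of 9 libraries in 6 groups was used, of which 3 are undifferentiated cells. Per the submitters' processing notes the tools include HISAT2 2.0.5 and StringTie 1.3.3b with mm10. Strand use and filters are not given in the sources used here. The authors deposited raw counts per gene and TPM values. TPM served for levels only. From the counts, edgeR 4.0.16 (R 4.3.3) fitted the 6 groups with TMM scaling, a quasi-likelihood F test and Benjamini-Hochberg adjustment over 24794 genes with at least 10 counts, scaled to the median library (0.0791 CPM), in at least 2 libraries. The fit had 3 residual degrees of freedom, and the lone wild-type library was assumed to vary like the knockout libraries. Each line against wild type came from the same fit without the other line. Rows with no gene name (259, holding 0.0242% to 0.0398% of counts) were left out. Gene names, classes and coordinates are from GENCODE M21. The fit was tested on simulated data. DESeq2 1.42.0 and limma 3.58.1 served as alternatives.

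Genes were named by a rule: a hand-written list, the 12 largest rises and falls with at least 5 CPM in the higher group, up to 5 called genes of each list, and the 5 largest rises and falls of pseudogenes. The largest rises and falls were taken only among called genes with the same sign in both lines. Further list members were named after their values were seen. The members and lists were chosen with earlier results of these data known. Results for some list members are not reported here.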

Additional observations from a re-analysis of the deposited data

Results flagged for a closer look

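The knockout difference changed between days in 125 genes for day 4 and in 1166 genes for day 8, by the test of the difference itself. Each value below is the log2 difference of knockout from wild type at day 0 minus that at the later day, for named genes past an adjusted p of 0.05 in the edgeR quasi-likelihood fit.

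Against day 4, the difference was lower at day 0 for Gm21451 (-15.85), Gm3699 (-13.34), Mx2 (-11.67), H2-T10 (-11.35), Actc1 (-10.04), Klhdc7a (-9.38), Gm12013 (-9.06), Gm15516 (-8.99), Gbp2b (-6.20), Gbp3 (-6.03), Gbp2 (-5.38), Ifih1 (-5.36), Lefty1 (-3.80), Tek (-3.61), Fgfr2 (-3.24), B2m (-2.62). It was higher at day 0 for Eif2s3y (4.13), Ifitm2 (2.88), Rpl27 (1.79). These fits hold 1 wild-type library a day, and values of genes at 0 counts depend on the prior count and are no bound.

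Against day 8, the difference was lower at day 0 for Mx2 (-14.78), Ifit3b (-14.30), Zbp1 (-13.85), Gm3699 (-13.44), H2-T10 (-12.81), Duxbl1 (-12.35), Gm21451 (-11.65), Klhdc7a (-11.24), Gbp2b (-10.13), Usp18 (-9.85), Gm15516 (-9.78), Isg15 (-9.43), Gm12013 (-9.43), Ifit1 (-9.29), Gbp2 (-9.22), Gbp3 (-8.96), Ifih1 (-8.62), Gm14633 (-8.25), Trim30a (-7.88), Wnt7a (-6.83), Psmb8 (-6.58), Zscan4f (-6.03), Lefty1 (-5.97), Nlrc5 (-5.37), Irf7 (-5.21), Wnt8a (-4.93), Xist (-4.66), Tlr3 (-4.17), Lefty2 (-3.81), Tap1 (-3.49), Anxa1 (-3.38), Tex19.1 (-3.37), Erap1 (-2.94), H2-D1 (-2.86), Ifitm3 (-2.69), S100a6 (-2.48), Sox2 (-2.29), Pou5f1 (-2.23), Eif2ak2 (-2.22), Map2 (-2.19), B2m (-2.12), Jarid2 (-2.11), Esrrb (-2.09), Utf1 (-2.04), Irf9 (-1.82), Zfp42 (-1.79), Zfp932 (-1.70). It was higher at day 0 for Ddx3y (10.42), Eif2s3y (9.95), Uty (9.86), Fosb (5.04), Rn7s1 (5.01), Rn7s2 (4.13), Msi1 (3.27), Rapgef3 (2.34), Ndrg1 (1.77), Lifr (1.72).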

How the results depend on the processing

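Of single-gene values under the alternatives, 2820 kept direction and side of the threshold, 426 kept the direction and lost the threshold, 29 gained it and none reversed. The count of day 0 calls (1347) was 3692 with DESeq2, 19 with day 0 libraries alone, 429 with protein-coding genes alone, and 375 to 1586 with 1 library left out. Higher calls (274) were 1457 with DESeq2, 467 and 458 on log2 TPM with pseudocounts of 1 and 0.1, 0 with day 0 alone, 114 with protein-coding genes alone and 34 to 454 with 1 library left out. Lower calls (1073) were 2235, 19 and 315 under DESeq2, day 0 alone and protein-coding genes alone, and 340 to 1133 with 1 library left out. The day 4 comparison (125) gave 224 with a mean of at least 1 CPM, 1877 with DESeq2, 0 with limma-voom, 373 and 309 on log2 TPM, 12 with the replicate block, 1 with protein-coding genes alone, 201 with counts divided by 4 and 0 to 199 with 1 library left out. The day 8 comparison (1166) gave 3868 with DESeq2, 2006 on log2 TPM with a pseudocount of 1, 295 with protein-coding genes alone and 0 to 2126 with 1 library left out. The replicate block, which shares a line number across days, gave 1239 day 0 calls, 974 of them shared, and 11 of 111 named calls were lost. The share of higher calls was 20.3%, 39.5% with DESeq2 and 8.33% to 9.49% without a day 4 or day 8 knockout library. The cause was not tested. Depth limits values under 10 counts in the 2 shallower knockout libraries.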
